A study of Homo sapiens with 16 samples.

Results

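The comparison set MDA-MB-231 cells given Entinostat and ATRA (all-trans retinoic acid) together against cells given the vehicle, DMSO. It rests on 4 of the 16 arrays of the series, 2 for each treatment, chosen by their treatment labels. Entinostat was used at 2.5 µM and ATRA at 1 µM, and exposure lasted 48 h. The series also held each drug alone at the same dose, read on 2 arrays each, and further groups with doxorubicin, which entered only the detection filter, the normalisation and the estimate of the spread. MDA-MB-231 is a long-established breast cancer cell line with mesenchymal features, so every group was the same single line, grown in DMEM with fetal bovine serum. Replicates are numbered 1 and 2 with no word in the labels on whether separate cultures were used. All p-values therefore measure only how far these arrays differ, and that spread may be technical.

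Class I histone deacetylases remove acetyl groups from histone tails and act inside corepressor complexes, and Entinostat inhibits enzymes of this class. Retinoic acid binds nuclear receptors (RARs, paired with RXRs) that sit on repeated half-sites in DNA. Without ligand these receptors hold corepressors such as NCOR1, which bring in histone deacetylases, and ligand exchanges them for coactivators. Cells limit the signal by reducing the precursor retinaldehyde back to retinol and by degrading retinoic acid itself.

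Promoter sequences of 4 genes are printed because their transcripts rose in different ways under the single drugs: DHRS3 stood high with ATRA alone, CRABP2 and CGN with Entinostat alone, and CPA4 was highest with both. Each run is the 250 bases before the annotated start, from RefSeq on GRCh38.p14, read 5′ to 3′ on the strand of the gene. DHRS3 lies at chr1:12618211-12618460 (minus strand), CRABP2 at chr1:156705785-156706034 (minus), CGN at chr1:151511137-151511386 (plus) and CPA4 at chr7:130292911-130293160 (plus). Capitals mark retinoic acid receptor half-sites on either strand, searched as AGGTCA or as any of its variants with G for the first letter (GGGTCA), with T for the third letter (AGTTCA) or with both changes (GGTTCA).
DHRS3: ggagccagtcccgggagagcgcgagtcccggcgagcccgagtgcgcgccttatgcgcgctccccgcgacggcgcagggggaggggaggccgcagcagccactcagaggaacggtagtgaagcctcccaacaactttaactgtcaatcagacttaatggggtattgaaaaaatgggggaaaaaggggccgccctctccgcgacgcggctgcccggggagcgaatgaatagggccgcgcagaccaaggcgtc
CRABP2: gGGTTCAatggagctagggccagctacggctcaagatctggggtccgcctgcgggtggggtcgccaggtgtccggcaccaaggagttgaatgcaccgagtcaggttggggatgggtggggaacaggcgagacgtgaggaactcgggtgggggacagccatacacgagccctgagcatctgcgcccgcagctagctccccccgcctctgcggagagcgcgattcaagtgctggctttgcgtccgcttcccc
CGN: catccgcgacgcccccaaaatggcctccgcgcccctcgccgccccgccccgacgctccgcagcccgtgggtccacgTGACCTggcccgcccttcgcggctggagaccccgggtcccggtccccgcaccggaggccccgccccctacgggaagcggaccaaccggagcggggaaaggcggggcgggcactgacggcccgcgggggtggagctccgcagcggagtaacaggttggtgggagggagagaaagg
CPA4: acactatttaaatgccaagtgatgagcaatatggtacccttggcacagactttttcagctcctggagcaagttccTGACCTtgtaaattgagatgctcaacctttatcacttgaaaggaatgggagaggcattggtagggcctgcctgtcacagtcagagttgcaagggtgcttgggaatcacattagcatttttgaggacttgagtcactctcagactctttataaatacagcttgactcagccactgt
The DHRS3 window held no such letters, although retinoic acid is known to induce this gene, and no match says only that these letters are not in this window. CRABP2 held GGTTCA 243 bases before its start, CGN held AGGTCA on the opposite strand 168 bases before its start, and CPA4 held AGGTCA on the opposite strand at nearly the same distance from its start. Of all 35116 promoter windows of the same length in the table, 33.8% held at least 1 of these half-sites. A match is a description and not a binding site.

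Between 11402 and 12748 genes were detected per array over the whole series. DMSO replicates 1 and 2 had 11402 and 12224 detected genes, and the Entinostat and ATRA replicates had 12748 and 12017. Values are log2 of the background-corrected, quantile-normalised intensity, and replicates correlated over genes at 0.99 for DMSO and 0.988 for the combination. Markers of the line were in part as its label describes: VIM, the mesenchymal intermediate filament vimentin, gave signals of 14550 and 14367.5 with DMSO and 15652 and 15625.5 with both drugs. CD44 and AXL were likewise detected on 16 of 16 arrays, but the mesenchymal genes SPARC and ZEB1 on 3 and 5. Of luminal markers, KRT8, KRT18, KRT19 and EPCAM were detected on 16 of 16 arrays. ESR1 and PGR, the hormone receptors of luminal breast cells, were detected on 0 of 16 arrays, and CDH1 (E-cadherin) on 1. Markers of blood, endothelium and fibroblasts summed to signals of 109.9 and 57 with DMSO and 583.2 and 585.7 with both drugs. CD14, the endotoxin coreceptor, made up the difference: without it the sums were 51.8 and 12.8 against 60.3 and 74.6. PTPRC, CD3E, DCN and LUM were detected on 0 of 16 arrays. PECAM1, an endothelial marker, was detected on 13, with signals of 75.5 and 78.8 with DMSO and 47.2 and 102.1 with both drugs. Other markers with signals below 0 lowered the sums. COL1A1 was detected on 6 arrays, VWF on 4, COL3A1 on 3 and HBB on 2.

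Entinostat and ATRA together changed 800 of 17126 tested genes (4.67%) at an adjusted p below 0.05 in limma, with Benjamini-Hochberg adjustment over all tested genes. Transcripts that rose numbered 547 (3.19%) and those that fell 253 (1.48%), while the median change over all tested genes was -0.01 on the log2 scale. Rises were larger than falls: 149 genes rose and 16 fell by more than 2-fold, and 15 rose and 0 fell by more than 4-fold. The median size of a called change was 0.79 for rises and 0.62 for falls. All 800 differed in the same direction in both replicate numbers, and the values of the 2 treatments overlapped for 5 of the called genes. A call favours genes with both traits, and their shares over all tested genes are not given here. These counts are therefore no measure of reproducibility. Of the called genes, 77 that rose were at background with DMSO and 6 that fell were at background with both drugs, so their folds are lower bounds.

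Array choice mattered for the size of these counts. The change was larger in replicate 1 for 535 of the 800 called genes and larger in replicate 2 for 265. Without DMSO replicate 1 the count was 204, without replicate 1 of the combination 223, without DMSO replicate 2 343 and without replicate 2 of the combination 590. Dropping the replicate number from the model (the replicate block) gave 421 calls (305 higher, 116 lower). A background correction fitted to the detection p-values, called the detection-based background below, gave 452 (236 higher, 216 lower).

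**Figure D1:**
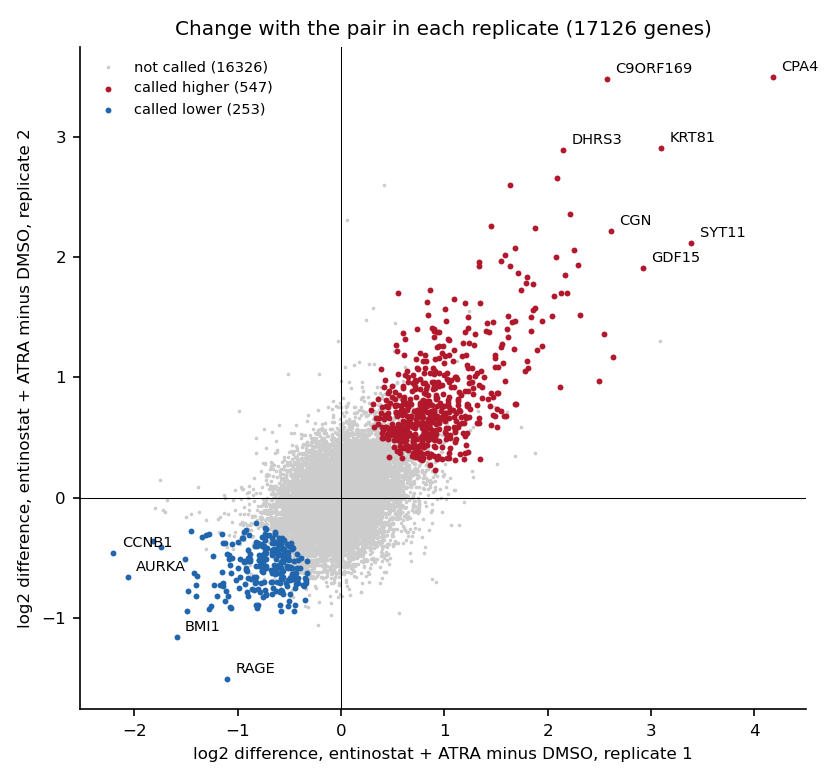
Each point is 1 of 17126 tested genes, with the log2 difference between Entinostat and ATRA and DMSO in replicate 1 on the horizontal axis and in replicate 2 on the vertical axis. Red points (547) rose and blue points (253) fell. CPA4 and C9ORF169 lie highest, BMI1 and RAGE lie lowest in replicate 2, and CCNB1 and AURKA lie far to the left and read -0.46 and -0.66 in replicate 2.

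The largest rise belonged to CPA4, a secreted carboxypeptidase. CPA4 read 7.55 on both DMSO arrays and 11.73 and 11.05 on those with both drugs, a log2 change of 3.84 (SE 0.16, 14.3-fold, adjusted p = 5.29e-09). The arrays were far apart, and the mean levels with Entinostat alone (10.41) and ATRA alone (8.18) lay between them. C9ORF169, now named CYSRT1, read 7.33 and 6.74 with DMSO and 9.90 and 10.22 with the combination (3.03, SE 0.20, 8.15-fold, adjusted p = 8.46e-07). KRT81, a hair keratin that breast cancer cells can express, read 9.40 and 9.70 against 12.50 and 12.61 (3.01, SE 0.48, 8.05-fold, adjusted p = 0.00202). Its call ended without DMSO replicate 1 (adjusted p = 0.0514) and with the detection-based background (0.0624).

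Other large rises spanned lipid handling, secreted factors and transcription factors. PTGES, the enzyme that makes prostaglandin E2, read 7.73 and 7.41 with DMSO and 9.82 and 10.07 with both drugs (5.18-fold, adjusted p = 0.000934). GDF15, a stress-induced cytokine of the TGF-beta family, was at background with DMSO (5.96 and 6.29) and read 8.88 and 8.20 with both drugs, at least 4.84-fold higher (adjusted p = 0.000386). CD14 rose from 6.99 and 6.83 to 9.21 and 9.18 (4.88-fold, adjusted p = 3.05e-06). Its DMSO signals of 58.1 and 44.2 had no detection p-value below 0.05. In each of these genes both treated arrays lay above both vehicle arrays, which the rule for naming the largest rises required. LMCD1, a LIM-domain cofactor, read 8.15 and 8.25 against 10.41 and 10.31 (4.47-fold, adjusted p = 8.46e-07). ANGPTL4, an inhibitor of lipoprotein lipase, read 7.26 and 7.68 against 9.55 and 9.62 (4.34-fold, adjusted p = 0.000458). ABCA1, which exports cholesterol from cells, rose 4.18-fold (adjusted p = 0.00717), but its adjusted p was 0.0682 without replicate 1 of the combination, 0.0622 without DMSO replicate 1 and 0.084 without DMSO replicate 2. CREB3L3, a membrane-bound transcription factor of lipid metabolism, was at background with DMSO and rose at least 3.89-fold (adjusted p = 0.00013), and CRISPLD2, a secreted protein, rose 4.12-fold (adjusted p = 1.55e-05). Both of these calls ended with the detection-based background (0.0517 and 0.341).

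**Figure D2:**
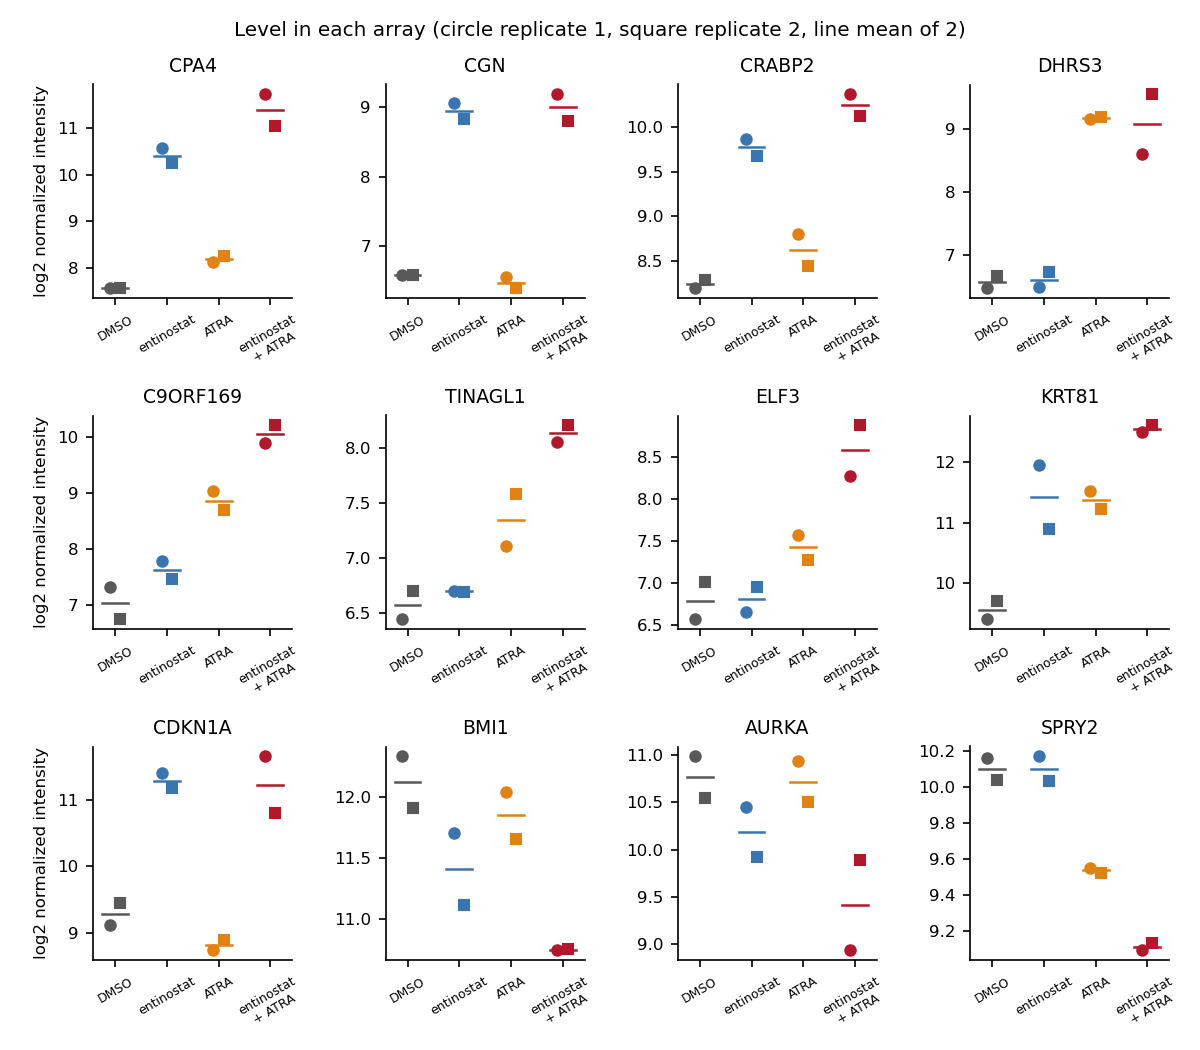
Log2 normalised intensity of 12 genes on each array, with DMSO, Entinostat, ATRA and the combination side by side. Circles are replicate 1, squares are replicate 2 and lines are means of 2 arrays, and each panel has its own vertical scale, so panels do not compare levels between genes. DHRS3 stands at 9.18 with ATRA alone and 6.60 with Entinostat alone, CGN at 8.95 with Entinostat alone and 6.48 with ATRA alone.

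Of 24 genes on a list of retinoic acid targets, 15 were detected well enough to be tested, and 7 of these rose and 0 fell, beside 3.19% rising over all tested genes. The median change of the 15 was 0.60 against -0.01 over all tested genes, and 8 did not pass the test. DHRS3, which reduces retinaldehyde back to retinol and so limits retinoic acid synthesis, read 6.46 and 6.66 with DMSO and 8.61 and 9.56 with both drugs (2.52, SE 0.29, 5.73-fold, adjusted p = 0.00013). CRABP2, the binding protein that hands retinoic acid to its receptors, read 8.19 and 8.28 against 10.37 and 10.13 (2.01, SE 0.14, 4.03-fold, adjusted p = 1.82e-06). Neither gene had overlapping arrays, which the rule that named them among the largest rises required. CYP26B1, which degrades retinoic acid, read 7.07 and 7.35 against 8.64 and 8.46 (2.54-fold, adjusted p = 0.000223). IGFBP3, a binding protein that holds insulin-like growth factors, read 8.31 and 8.30 against 10.15 and 9.80 (3.18-fold, adjusted p = 5.84e-05). The other 3 called targets were chosen for naming after their values were seen. TGM2, the tissue transglutaminase, rose 2.37-fold (adjusted p = 0.000534), IGFBP6 2.16-fold (0.0021) and RARRES3, a phospholipase induced by retinoids, 2.16-fold (0.00381). RARRES3 alone among the 7 lost its call without an array, at 0.0824 without DMSO replicate 1, and also without the block (0.108) and with the detection-based background (0.472).

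The same genes stood differently under the single drugs, whose comparisons share the DMSO arrays with this one. Mean DHRS3 was 6.60 with Entinostat alone and 9.18 with ATRA alone, against the 8.61 and 9.56 read with both. CRABP2 stood at 9.77 and 8.62, CYP26B1 at 8.18 and 7.18, and IGFBP3 at 10.01 and 8.34, in the same order of drugs. TGM2 stood at 9.67 and 10.26 and IGFBP6 at 8.17 and 9.50.

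Of 10 tested genes of retinoid metabolism and transport, 3 rose (DHRS3, CRABP2 and CYP26B1) and 0 fell, beside 3.19% rising over all tested genes. Their median was 0.33. FABP5, which carries retinoic acid to another nuclear receptor, read 9.56 and 9.38 with DMSO and 9.99 and 9.83 with both drugs (0.44, SE 0.16, adjusted p = 0.132). The retinaldehyde dehydrogenase ALDH1A3, which makes retinoic acid, read 6.70 and 6.89 against 7.17 and 7.21 (0.39, SE 0.18, adjusted p = 0.252). Neither passed the test, although their arrays did not overlap. LRAT, ALDH1A1, ALDH1A2, RDH10 and RDH11 had changes between -0.11 and 0.26 and adjusted p-values of 0.358 to 0.99. Among 8 tested receptors and cofactors, 1 rose and 0 fell, with a median of -0.06. RARA, the alpha receptor, read 6.99 and 7.24 against 7.54 and 7.72 (1.43-fold, adjusted p = 0.0247), and the call ended when any of the 4 arrays was left out (adjusted p 0.0866 to 0.187), without the block (0.13) and with the detection-based background (0.0504). The detection p-value of RARA was below 0.05 on 0 DMSO arrays and on 1 array with both drugs. RARB, the beta receptor and a classical target of retinoic acid, was at background with DMSO (5.90 and 6.03) and read 6.36 and 6.25 with both drugs (adjusted p = 0.12). The corepressor NCOR1 had a change of -0.25 (SE 0.12, adjusted p = 0.289) and RXRA, a partner of the RARs, one of -0.29 (SE 0.27, adjusted p = 0.651).

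Transcripts of the class I deacetylases and of their partners had a median change of -0.08. Of 11 tested members, 1 rose and 1 fell, beside 4.67% called over all tested genes. HDAC3 read 9.28 and 9.52 with DMSO and 10.02 and 9.86 with both drugs (1.46-fold, adjusted p = 0.0219), and SIN3A, the scaffold of the SIN3 corepressor complex, read 9.11 and 9.24 against 8.29 and 8.68 (a log2 change of -0.69, SE 0.13, adjusted p = 0.00695). Both calls ended without DMSO replicate 1 (0.256 and 0.12) and without replicate 1 of the combination (0.249 and 0.0983). The HDAC3 call also ended with a smaller offset (0.0681), and that of SIN3A without the block (0.0896) and with the detection-based background (0.0577). HDAC1 (-0.08, SE 0.13), HDAC2 (-0.04, SE 0.12) and HDAC8 (-0.01, SE 0.14) had adjusted p-values of 0.835, 0.919 and 0.978. Other chromatin modifiers gave 1 rise and 3 falls among 16 tested, with a median of -0.08, and 1 fall without any 1 of the 4 arrays. Their largest change, and the largest fall of the whole comparison, was BMI1, the Polycomb protein that represses the CDKN2A locus. BMI1 read 12.33 and 11.91 with DMSO and 10.74 and 10.75 with both drugs (-1.37, SE 0.17, adjusted p = 0.000233). Mean BMI1 was 11.40 with Entinostat alone and 11.85 with ATRA alone. RING1, a partner of BMI1 in the same complex, rose 1.40-fold (adjusted p = 0.0302), and the acetyltransferases CREBBP (-0.61, adjusted p = 0.0315) and KAT2B (-0.55, adjusted p = 0.0372) fell. Each of those 3 calls ended when any 1 of the 4 arrays was left out (adjusted p 0.0735 to 0.3).

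Genes known to answer deacetylase inhibitors gave 3 rises and 0 falls among 16 tested, beside 3.19% rising and 1.48% falling over all tested genes. Their median was 0.41. CDKN1A, whose product p21 inhibits cyclin-dependent kinases, read 9.12 and 9.44 with DMSO and 11.66 and 10.80 with both drugs (3.87-fold, adjusted p = 8.53e-05). Its deposited signals of 487 to 3193 on these 4 arrays had no detection p-value below 0.05. Its mean was 11.29 with Entinostat alone and 8.81 with ATRA alone. SYT11, a synaptotagmin, read 6.50 and 6.65 against 9.89 and 8.77 (6.76-fold, adjusted p = 9.75e-06, and 0.0705 with the detection-based background). MT1X, a metallothionein that binds zinc and copper, read 11.03 and 10.83 against 11.86 and 12.36 (2.27-fold, adjusted p = 0.0041), and its call ended without DMSO replicate 1 (0.0622) or replicate 2 of the combination (0.0547). Of 6 tested metallothioneins it was the only member called, and their median was 0.37. Among 16 cell cycle inhibitors and G1 cyclins, 2 rose and 2 fell. CCND2, a D-type cyclin, read 7.70 and 7.88 against 9.19 and 9.07 (2.53-fold, adjusted p = 0.000852), whereas CDKN1B, which encodes p27, had a change of -0.63 (adjusted p = 0.0071) and CDKN2C, which encodes p18, one of -0.76 (adjusted p = 0.0141). Leaving out DMSO replicate 1 ended the calls of CDKN1B (0.122) and CDKN2C (0.0946), as did leaving out replicate 1 of the combination (0.101 and 0.115). CDKN2C also lost its call without DMSO replicate 2 (0.118), without replicate 2 of the combination (0.0663) and with the detection-based background (0.305).

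Epithelial and luminal genes had the highest median of the 30 functional lists, 0.73 against -0.01 over all tested genes, with 9 of 15 tested members rising and 0 falling, beside 3.19% rising over all tested genes. Members that rose numbered 4 without DMSO replicate 1, 5 without DMSO replicate 2 or replicate 1 of the combination, and 3 with the detection-based background. ELF3, an epithelial transcription factor, read 6.57 and 7.02 with DMSO and 8.28 and 8.88 with both drugs (3.46-fold, adjusted p = 0.000116). KRT19, a keratin of simple epithelia, read 9.19 and 8.83 against 11.05 and 10.39 (3.27-fold, adjusted p = 0.000731). KRT7, another such keratin, named after its values were seen, read 8.95 and 9.49 against 10.25 and 10.85 (2.52-fold, adjusted p = 0.000852). These 3 genes kept their calls in every alternative tried. KRT80 rose 2.70-fold (adjusted p = 0.0174) and KRT8 1.63-fold (0.0449). Their calls ended without DMSO replicate 1 (0.237 and 0.287), without replicate 2 of the combination (0.151 and 0.239) and with the detection-based background (0.0838 and 0.206), and that of KRT8 also without the other 2 arrays (0.115 and 0.142) or the block (0.0886). FOXA1, a luminal pioneer factor also named after its values were seen, was at background with DMSO and was at least 1.65-fold higher with both drugs (adjusted p = 0.00381, but 0.0918 without replicate 1 of the combination, 0.054 without DMSO replicate 2 and 0.138 with the detection-based background). CDH1, the defining adhesion gene of epithelia, stayed below the detection filter. A separate list of luminal breast markers had a median of 0.04, with 2 of 5 tested members rising (KRT8 and KRT19, which both lists hold) and 0 falling. Its other members included the keratin KRT18, which read 7.15 and 7.70 with DMSO and 6.84 and 7.03 with both drugs (-0.49, SE 0.15, adjusted p = 0.0832), and EPCAM, an adhesion molecule with a change of 0.04 (SE 0.16, adjusted p = 0.945).

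Tight junction and adhesion genes gave 5 rises and 0 falls among 12 tested, beside 3.19% rising over all tested genes. Their median was 0.47. The number that rose was 3 without DMSO replicate 1 or replicate 1 of the combination, and 2 with the detection-based background. CGN, which encodes the junction plaque protein cingulin, read 6.58 and 6.59 with DMSO and 9.19 and 8.81 with both drugs (5.33-fold, adjusted p = 1.68e-07). CLDN7, a claudin of tight junctions, read 7.05 and 6.61 against 8.69 and 8.54 (3.44-fold, adjusted p = 0.00013). CLDN1 read 6.62 and 6.67 against 8.11 and 7.76 (2.44-fold, adjusted p = 0.000234, and 0.127 with the detection-based background). Mean CGN and CLDN1 were 8.95 and 8.08 with Entinostat alone and 6.48 and 6.52 with ATRA alone, while CLDN7 stood at 7.97 and 7.85. JUP, which encodes plakoglobin, rose 1.82-fold (adjusted p = 0.0129), with 0.203 without DMSO replicate 1 and 0.192 without replicate 1 of the combination, 0.0743 without the block and 0.369 with the detection-based background. Mesenchymal genes did not move the other way: 2 of 21 rose and 0 fell, with a median of 0.09. TGFBI, a matrix protein induced by TGF-beta, rose 2.64-fold (adjusted p = 0.00624) and ITGA5, the fibronectin receptor subunit, 1.74-fold (0.00542), and both calls ended without DMSO replicate 1 (both 0.124) or replicate 1 of the combination (0.0682 and 0.0928), and with the detection-based background (0.0722 and 0.0911). Of 7 tested markers of mesenchymal breast cancer lines, VIM and CD44 among them, 0 passed the test, and their median was -0.01.

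**Figure D3:**
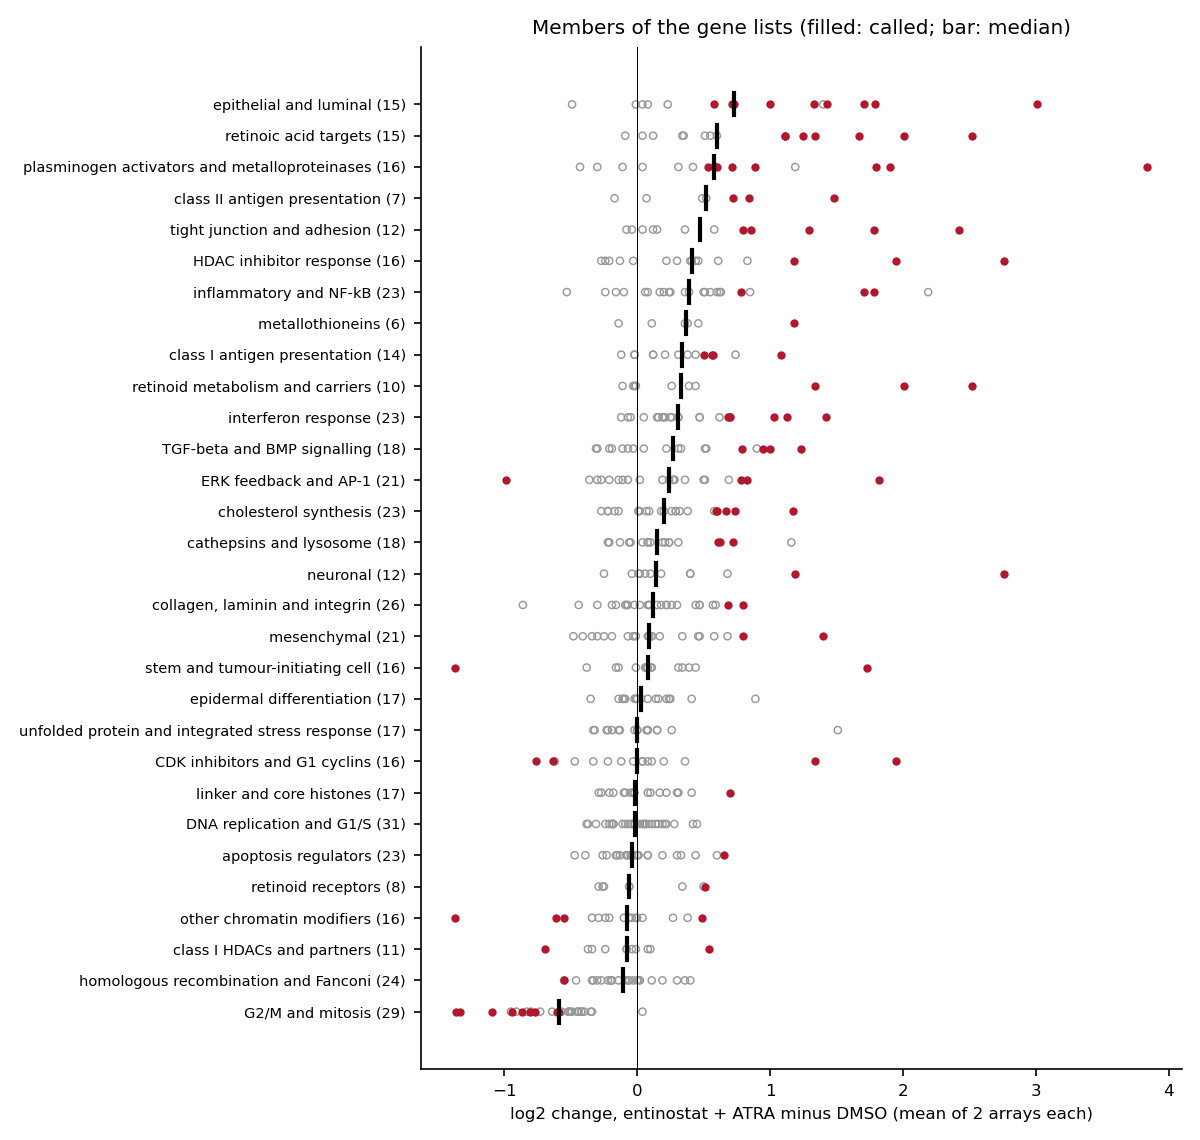
Log2 change of every tested member of 30 gene lists, Entinostat and ATRA minus DMSO, with lists ordered by their median (black bar) and the number tested in brackets. Filled points passed the test at an adjusted p below 0.05. Epithelial and luminal genes lie at the top with a median of 0.73, and G2/M and mitosis genes at the bottom with -0.59.

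Of 16 tested plasminogen activators, metalloproteinases and related genes, 7 rose and 0 fell, beside 3.19% rising over all tested genes. Their median was 0.58, and CPA4 is 1 of the 7. Members that rose numbered 2 without DMSO replicate 1, 3 without replicate 1 of the combination or with the detection-based background, and 4 without DMSO replicate 2 or the block. PLAT, the tissue plasminogen activator, read 7.97 and 7.93 with DMSO and 9.56 and 9.95 with both drugs (3.49-fold, adjusted p = 8.47e-05). SERPINB2, which inhibits the urokinase activator, read 9.66 and 9.91 against 12.29 and 11.08 (3.73-fold, adjusted p = 0.00791), and MMP9, a gelatinase, was at background with DMSO and at least 1.49-fold higher (adjusted p = 0.00341). The SERPINB2 and MMP9 calls ended without DMSO replicate 1 (0.12 and 0.0858) and without replicate 1 of the combination (0.152 and 0.0802), and that of SERPINB2 without DMSO replicate 2 (0.0504). Both also ended with the detection-based background (0.0656 and 0.063). PLAT kept its call throughout.

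Inflammatory genes gave 3 rises and 0 falls among 23 tested, beside 3.19% rising over all tested genes. Their median was 0.39. IL1A, a cytokine that acts from inside and outside the cell, was at background with DMSO (6.43 and 6.05) and read 8.47 and 7.55 with both drugs, at least 3.29-fold higher (adjusted p = 5.45e-05). IL1B, its secreted relative, was at background too (5.88 and 6.10) and read 7.83 and 7.57, at least 2.83-fold higher (adjusted p = 0.000374, and 0.272 with the detection-based background). IL8, a neutrophil attractant named after its values were seen, read 7.46 and 6.88 against 10.54 and 8.19. Its change of 2.19 (SE 0.60, from the spread shared over all 16 arrays) did not pass the test (adjusted p = 0.0514). In limma fitted to only the 4 arrays IL8 did pass (adjusted p = 0.000392), and with the detection-based background it did not (0.39). The third call of the list was CSF2, a growth factor of myeloid cells (1.72-fold, adjusted p = 0.0252), and it ended without replicate 1 of the combination (0.351), without either DMSO array (0.142 and 0.16) and with the detection-based background (0.127). The number that rose was 6 without replicate 2 of the combination and 1 with the detection-based background. TNFRSF1B, a receptor for tumour necrosis factor that the list does not hold, read 7.36 and 6.61 against 8.91 and 8.58 (3.38-fold, adjusted p = 9.54e-06).

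Interferon-response genes gave 5 rises and 0 falls among 23 tested, beside 3.19% rising over all tested genes. Their median was 0.31. Members that rose numbered 1 without either DMSO array or replicate 1 of the combination, 2 without the block and 0 with the detection-based background. ISG20, an antiviral exonuclease, rose 2.68-fold (adjusted p = 0.0107), IRF1, an interferon regulatory factor, 2.18-fold (0.00794), IFI35 1.63-fold (0.02), and MX1, an antiviral GTPase, at least 1.81-fold from background (0.00697). IFI35 lost its call without any 1 of the 4 arrays (0.0709 to 0.145), ISG20 without any but replicate 2 of the combination (0.0787 to 0.134), MX1 without either replicate 1 (0.139 and 0.145) and IRF1 without either replicate 2 (0.0866 and 0.113). All 4 calls ended with the detection-based background (0.116 to 0.285), and those of ISG20 and MX1 without the block (0.138 and 0.0988). Class II antigen presentation genes gave 3 rises and 0 falls among 7 tested, with a median of 0.52, and 1 rise without either DMSO array, replicate 1 of the combination or the block, or with the detection-based background. HLA-DMB, which with HLA-DMA loads peptide onto class II molecules, read 6.89 and 6.99 with DMSO and 8.24 and 8.61 with both drugs (2.80-fold, adjusted p = 4.23e-05). HLA-DMA rose 1.79-fold (0.00837) and HLA-DRA, a class II chain, 1.64-fold (0.0278). HLA-DRA lost its call without any 1 of the 4 arrays (0.0888 to 0.196) and HLA-DMA without any but replicate 2 of the combination (0.0506 to 0.138), and both also without the block (0.434 and 0.118). Class I genes gave 4 rises and 0 falls among 14 tested, with a median of 0.34, but 0 remained called without the block or without DMSO replicate 1, DMSO replicate 2 or replicate 1 of the combination. The largest of these was HLA-B, a class I heavy chain whose probes may share sequence with its relatives (2.11-fold, adjusted p = 0.0261). HCP5, a long non-coding RNA gene within the class I region, read 6.54 and 6.63 against 8.34 and 8.47 (3.53-fold, adjusted p = 4.8e-06) and kept its call throughout.

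G2/M and mitosis genes had the lowest median of the 30 lists, -0.59. Of 29 tested members 9 fell and 0 rose, beside 1.48% falling over all tested genes. AURKA, a kinase of the mitotic spindle poles, read 10.99 and 10.55 with DMSO and 8.93 and 9.89 with both drugs (-1.36, SE 0.26, adjusted p = 0.00642). CCNB1, the cyclin that drives entry into mitosis, read 10.37 and 9.53 against 8.17 and 9.06 (-1.33, SE 0.29, adjusted p = 0.0156). CENPE, a kinetochore motor, read 9.46 and 8.75 against 7.64 and 8.40 (-1.09, SE 0.25, adjusted p = 0.0207). In all 3 the treated arrays lay below both vehicle arrays, which the rule for naming the largest falls required. Replicate 1 of the combination was the lowest of the 4. KIF23, a motor of cytokinesis, read 8.76 and 8.72 against 7.62 and 7.98 (-0.94, SE 0.13, adjusted p = 0.000668), and it was the only member of the 4 that kept its call in every alternative.

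The fall of this list was mostly in replicate 1. Its median change was -0.92 between arrays numbered 1 and -0.23 between arrays numbered 2. The number of called members was 1 without DMSO replicate 1, 1 without replicate 1 of the combination, 5 without DMSO replicate 2 and 19 without replicate 2 of the combination. It was 4 without the block and 2 with the detection-based background. For AURKA, CCNB1 and CENPE the adjusted p was 0.132, 0.246 and 0.258 without DMSO replicate 1, and 0.0963, 0.239 and 0.259 without replicate 1 of the combination. With the detection-based background it was 0.0579, 0.136 and 0.128. In these bulk samples, fewer cells in mitosis and less RNA per cell cannot be told apart. Of the DNA replication and G1/S genes, 0 of 31 tested members passed the test, with a median of -0.02. TK1, thymidine kinase, had a change of 0.45 (SE 0.14, adjusted p = 0.0995) and RRM1, the large subunit of ribonucleotide reductase, -0.37 (SE 0.12, adjusted p = 0.117).

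**Figure D4:**
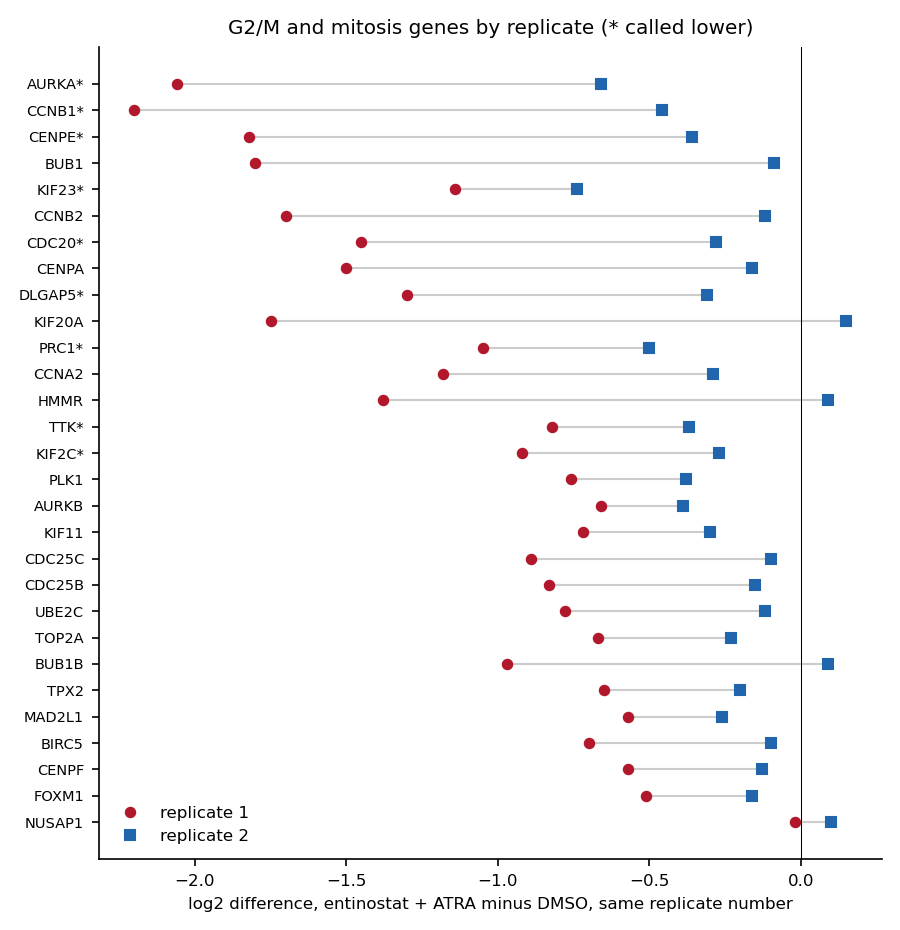
Log2 difference between Entinostat and ATRA and DMSO for 29 G2/M and mitosis genes, between arrays of replicate 1 (red circles) and of replicate 2 (blue squares). Stars mark the 9 genes called lower. The medians are -0.92 and -0.23, and the line joining the symbols is longest for CCNB1, KIF20A and BUB1 among the genes shown.

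Several of the largest falls lay outside the cell cycle. RAGE, a file name that older annotation gives to both AGER and MOK, read 9.38 and 9.84 with DMSO and 8.28 and 8.33 with both drugs (-1.31, SE 0.15, adjusted p = 0.00015). VEGFC, a growth factor for lymphatic vessels, read 9.31 and 8.94 against 8.03 and 8.01 (-1.11, SE 0.15, adjusted p = 0.000668). CXORF26, now named PBDC1, read 10.89 and 10.64 against 9.49 and 9.81 (-1.11, SE 0.15, adjusted p = 0.000579). These 3 kept their calls in every alternative. Their arrays did not overlap, which the rule for naming the largest falls required. SLCO4A1, an organic anion transporter, fell by 1.21 on the log2 scale (adjusted p = 0.00292) and PRDM8, a zinc finger repressor, by 1.13 (0.00275). Both calls ended without DMSO replicate 1 (0.0622 and 0.0561) and without replicate 1 of the combination (0.0739 and 0.0671). LOC100216001 had a change of -1.08 (adjusted p = 0.0308), with 0.193, 0.161 and 0.301 without DMSO replicate 1, DMSO replicate 2 and replicate 1 of the combination, and 0.124 without the block. SPRY2, a feedback inhibitor of receptor tyrosine kinase signalling, read 10.16 and 10.04 against 9.09 and 9.13 (-0.99, SE 0.16, adjusted p = 0.00212).

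TGF-beta and BMP signalling genes gave 4 rises and 0 falls among 18 tested, beside 3.19% rising and 1.48% falling over all tested genes. Their median was 0.27, with 7 members below 0. The number that rose was 1 without either DMSO array or with the detection-based background, and 2 without replicate 1 of the combination. SMAD6, which inhibits BMP signalling, read 7.63 and 7.68 with DMSO and 8.45 and 8.86 with both drugs (2.00-fold, adjusted p = 0.00231, and 0.0574 with the detection-based background). ID1, a target of BMP signals, rose 2.35-fold (0.00867) and the ligand BMP6 at least 1.93-fold from background (0.00837). The ID1 and BMP6 calls ended without DMSO replicate 1 (0.111 and 0.0774) and without DMSO replicate 2 (0.0596 and 0.0787). That of ID1 also ended without replicate 2 of the combination (0.0979) and that of BMP6 without replicate 1 (0.135) and with the detection-based background (0.111). Feedback and AP-1 genes of the ERK pathway gave 3 rises and 1 fall, SPRY2, among 21 tested, with a median of 0.24 and 8 members below 0. Members that rose numbered 1 without DMSO replicate 1, replicate 1 of the combination or the block. DUSP1, a phosphatase that inactivates MAP kinases, read 8.60 and 8.33 against 10.45 and 10.11 (3.53-fold, adjusted p = 8.1e-05) and kept its call throughout. DUSP5, an ERK phosphatase, rose 1.77-fold (0.00333), with 0.0859 without DMSO replicate 1, 0.062 without replicate 1 of the combination and 0.221 without the block.

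Cholesterol synthesis genes gave 5 rises and 0 falls among 23 tested, beside 3.19% rising and 1.48% falling over all tested genes. Their median was 0.20. The number that rose was 0 without DMSO replicate 1 or replicate 1 of the combination, 1 without replicate 2 of the combination or with the detection-based background, and 2 without DMSO replicate 2 or the block. INSIG1, which holds back the regulators of this pathway, rose 2.25-fold (adjusted p = 0.0136) and DHCR7, an enzyme of the last steps, 1.60-fold (0.0133). Both calls ended without DMSO replicate 1 (0.0658 and 0.229), without replicate 1 of the combination (0.0837 and 0.0894) and without replicate 2 of the combination (0.0868 and 0.0778). That of INSIG1 also ended without DMSO replicate 2 (0.144) and that of DHCR7 without the block (0.149). Stem and tumour-initiating cell genes gave 1 rise and 1 fall, BMI1, among 16 tested, with a median of 0.08. CD24, a surface glycoprotein often low in such cells, was at background with DMSO (6.25 and 6.14) and read 8.75 and 7.11 with both drugs, at least 3.30-fold higher (adjusted p = 0.00624, but 0.137 without DMSO replicate 1, 0.133 without replicate 1 of the combination and 0.0753 without the block). The CD24 call also ended with the detection-based background (0.424). CD44, which often marks tumour-initiating cells, had a change of -0.38 (SE 0.16, adjusted p = 0.209).

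Other lists held few calls, beside 4.67% called over all tested genes (3.19% rising and 1.48% falling). Cathepsin and lysosome genes gave 3 rises among 18 tested (CTSB, CTSH and PSAP, 1.53- to 1.65-fold). All 3 calls ended without DMSO replicate 1 (0.158 to 0.283), and each ended without at least 1 further array. Collagen, laminin and integrin genes gave 2 rises among 26, neuronal genes 2 among 12 (SYT11 and the granule protein SCG2), histones 1 among 17, apoptosis regulators 1 among 23 (PMAIP1, which encodes the BH3-only protein NOXA) and homologous recombination and Fanconi genes 1 fall among 24 (NBN, also without a detection p-value below 0.05 on the 4 arrays). Their medians ran from -0.11 to 0.14. With 1 call each, the histone, apoptosis and recombination lists were near the share called over all tested genes and are not read as a result. The detection-based background left 0 rises in the cathepsin, collagen, neuronal, histone and apoptosis lists. Leaving out DMSO replicate 1 ended the calls of the histone H1FX (0.319), PMAIP1 (0.154) and NBN (0.158), and leaving out replicate 1 of the combination ended those of PMAIP1 (0.215) and NBN (0.148). Unfolded protein and stress response genes (17 tested) and epidermal differentiation genes (17 tested) had 0 calls each, with medians of 0 and 0.03.

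Set against Entinostat alone at the same dose and time, the combination changed 8 genes (0.0467% of 17126), 6 higher and 2 lower. An unadjusted p below 0.05 was reached by 856 genes. That is not above the share of 0.05 that would reach it with no change in any gene. C9ORF169 read 7.78 and 7.47 with Entinostat and 9.90 and 10.22 with both drugs (2.44, SE 0.20, adjusted p = 6.74e-05). TINAGL1, a secreted matrix protein, read 6.70 and 6.69 against 8.06 and 8.21 (1.44, SE 0.13, adjusted p = 9.14e-05). DHRS3 read 6.48 and 6.72 against 8.61 and 9.56 (2.48, SE 0.29, adjusted p = 0.00153). These genes stood clear of the Entinostat arrays, and C9ORF169 and TINAGL1 were called in every alternative. ELF3 read 6.66 and 6.96 against 8.28 and 8.88 (1.77, SE 0.20, adjusted p = 0.00153). Leaving out Entinostat replicate 1 ended the calls of DHRS3 and ELF3 (0.0712 for each), as did the detection-based background (0.547 and 0.252), and DHRS3 was also lost without Entinostat replicate 2 (0.054). FBXO32, a ubiquitin ligase subunit, rose by 0.85 on the log2 scale (adjusted p = 0.0211), CPA4 by 0.98 (0.044), SPRY2 fell by 0.99 (0.0412) and PTPRK, a receptor phosphatase named after its values were seen, by 0.98 (0.0269). With a smaller offset all of them lost their calls (0.0786 to 0.218). The detection-based background ended those of FBXO32 (0.233), CPA4 (0.175) and SPRY2 (0.0898). CPA4 also did not pass with cyclic loess normalisation (0.0537) or another variance model (0.0546). Those 4 calls ended when either Entinostat array (adjusted p 0.201 to 0.621) or replicate 1 of the combination (0.373 to 0.676) was left out, and those of CPA4 and SPRY2 also without the block (0.331 and 0.169). The count itself was 2 without Entinostat replicate 1, 3 without Entinostat replicate 2, 5 without replicate 1 of the combination and 22 without its replicate 2.

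Set against ATRA alone, 651 genes changed (3.8%), 455 higher and 196 lower. The count was 150 without ATRA replicate 1, 186 without ATRA replicate 2 and 127 without replicate 1 of the combination, and 328 without the block. CPA4 was 3.21 higher on the log2 scale (adjusted p = 6.91e-08), CGN 2.53 higher (8.79e-08) and CDKN1A 2.42 higher (1.65e-05), whereas DHRS3 differed by -0.10 (SE 0.29, adjusted p = 0.926). BMI1 was lower by -1.10 (SE 0.17, adjusted p = 0.00189). The combination was also compared with the sum of the single-drug changes on the log2 scale. This departure from additivity passed the test for 0 genes (0%), with 421 at an unadjusted p below 0.05 and a smallest adjusted p of 1. The 421 are fewer than the share of 0.05 that no departure in any gene would give. The median SE of the departure was 0.21. ELF3 had a departure of 1.13 (SE 0.28, unadjusted p = 0.00122), with changes against DMSO of 0.02 for Entinostat, 0.64 for ATRA and 1.79 for both. Among the genes with the lowest p were also departures below 0, those of LOC649620 (-0.93, SE 0.21, unadjusted p = 0.000525, below background with DMSO and with both drugs) and FAM50B (-0.82, SE 0.20, unadjusted p = 0.00109). TGM2 had -0.89 (SE 0.24, unadjusted p = 0.002). CPA4 had 0.35 (SE 0.23, unadjusted p = 0.139), and DHRS3 -0.13 (SE 0.41, unadjusted p = 0.747).

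**Figure D5:**
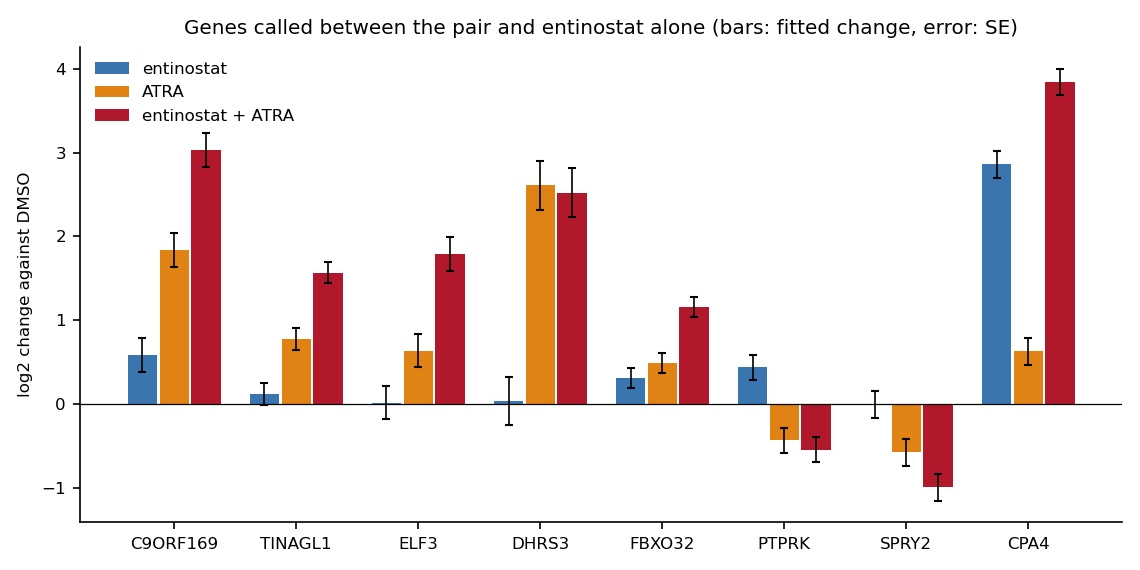
Fitted log2 change against DMSO under Entinostat, ATRA and both drugs for the 8 genes called between the combination and Entinostat alone. Bars start at 0 and error bars are SEs of the fit. DHRS3 is at 2.61 with ATRA and 2.52 with both drugs, while CPA4 is at 2.86 with Entinostat and 3.84 with both.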

How the data were processed

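Total RNA was labelled with biotin and hybridised to Illumina arrays, per the labels' protocols. The authors deposited a linear intensity and a detection p-value for each of 34691 gene names on every array. On each array 27.5% to 28.2% of the deposited intensities were below 0, so a background had been subtracted. The sources used here do not give how probes were combined. The authors also deposited a processed log2 table, used as an alternative, and the submitters' processing notes name limma. Spike-ins (92) and unnamed clusters (3270) were left out, as were genes not detected (p below 0.05) on at least 2 of 16 arrays, which left 17126. Of these names, 10919 are current RefSeq symbols, 2049 match a single older symbol and 4158 match none or several; the names of the file are used.

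With limma 3.58.1 in R 4.3.3, intensities received a normexp correction (offset 50), quantile normalisation and a log2 transform. The comparison's definition sets the replicate number as pair, so all 16 arrays entered 1 fit of 8 group means with the replicate number as a block (7 residual degrees of freedom), and a gene was called where its p, adjusted by Benjamini-Hochberg, was below 0.05. Precision is limited by how few arrays there are. The offset makes folds of dim genes smaller than they were. A group counted as at background where no array was detected and every signal was below 22.4 (3 times the noise SD), and the fold is then a lower bound, taken per array against the lowest detected value or the reading of the gene where that is larger. Tested on simulated data for this comparison, the fit recovered 66 of 66 genes changed by 2 on the log2 scale, 56 of 67 changed by 1 and 14 of 67 changed by 0.5, with 3 of 16926 unchanged genes called. The simulated noise was independent and normal, with the same spread of a gene in every group, as the fit assumes. It held no outlying array and skipped background correction and normalisation, so it does not cover those sources of error.

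The comparison and the 35 gene lists were chosen with earlier results of these data known. Genes were named by a rule. It took the 15 largest rises and 10 largest falls among called genes brighter than the median whose treated arrays both lay beyond both DMSO arrays. It also took up to 4 called members of each list (or the members with the lowest p up to 2). It further took all members of the lists of retinoid metabolism, retinoid receptors and class I deacetylases, and the 5 genes with the lowest p in each other comparison. Some genes that this rule names are not reported here. Alternatives covered the block, the samples fitted, the background correction, the normalization, the filter, the variance model, the authors' log2 table and each array left out.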

Additional observations from a re-analysis of the deposited data

Results flagged for a closer look

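Some signals outside the tested genes were called between Entinostat and ATRA and DMSO, at shares no higher than the 4.67% over the tested genes. Of 1909 unnamed expressed sequence clusters that passed the detection filter, 18 (0.943%) were called in limma at an adjusted p below 0.05, 10 higher and 8 lower; they carry no gene name and were left out of the counts above. A set of 117 named genes had a mean signal above 100 but a detection p-value below 0.05 on fewer than 2 arrays, and 5 of them (4.27%) were called in a fit that included them. FHL2, a LIM-domain cofactor, was higher (log2 change 0.73, SE 0.13, adjusted p = 0.00547). ARID1A, a subunit of the SWI/SNF remodelling complex (-0.86, SE 0.15, adjusted p = 0.00375), ZMYND11, a chromatin reader (-0.95, SE 0.17, adjusted p = 0.00437), LOC643167 (-0.74, SE 0.13, adjusted p = 0.00482) and RASA1, a Ras GTPase-activating protein (-0.75, SE 0.18, adjusted p = 0.0298), were lower. ATF3, a stress-induced transcription factor in the same set, read 6.61 and 6.24 with DMSO and 7.80 and 6.92 with both drugs (0.94, SE 0.30, adjusted p = 0.102). Groups of 2 arrays allow no test for a single outlying array.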

How the results depend on the processing

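Among the alternatives, the count of genes called between Entinostat and ATRA and DMSO (800) ran from 421 to 1072 and stayed within 1.5 times except without the replicate block (421) and with the detection-based background (452, of which 367 were among the 800). With 1 array left out it ran from 204 to 590. Against Entinostat alone the count (8) was 3 with the detection-based background and 4 with a normexp offset of 16, with a range of 2 to 22 over arrays left out; against ATRA alone (651) it was 328 without the block and 322 with the detection-based background, with a range of 127 to 527. Departure from additivity gave 0 calls in all 18 alternatives, with 218 to 1030 genes at an unadjusted p below 0.05. In each alternative these were less than a share of 0.05 of the genes tested. The labels do not say what a replicate number shares, and differences between replicate 1 and replicate 2 correlated between groups at 0.019 to 0.424 (median 0.22 over 28 group pairs, 0.2 between the 2 groups compared). Of 90 called genes that were named, 31 kept their call in all 15 alternatives, 26 lost it without the block, 46 with the detection-based background and 52 with at least 1 array left out, and 0 changed direction; the causes were not tested. Signal over background limits dim genes such as RARB, whose folds are bounds. Each comparison rests on 2 arrays a group, and where 1 group is left with 1 array that array is assumed to vary like the other groups.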

Other observations

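Genes of ribosome assembly moved downward, in a list written after the largest falls had been seen, so its count supports nothing by itself. Of 40 such genes, 39 were tested, 9 fell and 0 rose, with a median log2 change of -0.30 and 33 of 39 below 0, beside a median of -0.01 and 253 falls (1.48%) over all tested genes. NIP7, an export and maturation factor of ribosomal subunits, read 11.32 and 11.26 with DMSO and 10.50 and 10.34 with both drugs (-0.87, SE 0.15, adjusted p = 0.00364). DDX21, a nucleolar RNA helicase, read 11.54 and 11.49 against 10.73 and 10.60 (-0.85, SE 0.14, adjusted p = 0.00249), and BRIX1, which matures the large subunit, read 11.29 and 11.07 against 10.56 and 10.26 (-0.77, SE 0.12, adjusted p = 0.00207). These 3 kept their calls in all 15 alternatives, and the number of list members that fell ranged from 3 (without replicate 1 of the combination) to 10, with 5 without either DMSO array. MYC, a known driver of ribosome production that the list also holds, was not lower, with 8.96 and 8.91 against 9.51 and 9.37 (0.50, SE 0.14, adjusted p = 0.0557).

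Further rises were named after their values were seen. HES4, a Notch pathway repressor, read 8.56 and 8.58 with DMSO and 10.87 and 10.10 with both drugs (3.77-fold, adjusted p = 1.25e-05). GPRC5A, a receptor first described as induced by retinoic acid, read 7.37 and 7.58 against 9.43 and 9.26 (3.65-fold, adjusted p = 1.3e-05). F3, which encodes tissue factor, rose 2.72-fold (adjusted p = 0.000506) and STC1, the secreted hormone stanniocalcin, 3.06-fold (8.1e-05). CYP1A1, a target of the aryl hydrocarbon receptor, read 6.46 and 6.56 against 7.91 and 8.82 (3.61-fold, adjusted p = 8.47e-05, and 0.0935 with the detection-based background). SLC7A11, the cystine transporter subunit, fell by 0.99 on the log2 scale (adjusted p = 0.000739). With the exception of CYP1A1, these genes kept their calls in the alternatives tried.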
